A study of Mus musculus with 10 samples.

Results

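Schwann cells and other peripheral glia were followed in mouse neuroblastoma through 7 genes: Sox10, Foxd3, Erbb3, Ngfr, Cdh19, S100b and Mbp. They were taken by gene symbol, through the Ensembl identifiers of the count table, and make up 7 of its 54446 genes. The tumours came from TH-MYCN mice, in which human MYCN is expressed from a tyrosine hydroxylase promoter and neuroblastoma arises in sympathetic tissue. This transgene is shared by all 3 groups: untreated mice (n = 3, libraries 1, 2 and 3), mice treated for 24 h (n = 3, libraries 2, 3 and 4) and mice treated for 5 days (n = 4, libraries 1 to 4). Sample titles describe a combination treatment. The design text gives the drugs, MLN8237 (alisertib, which inhibits Aurora-A kinase) and AZD6738 (ceralasertib, which inhibits the kinase ATR), and joins them with "or". Polyadenylated RNA of whole tumours was sequenced, and values are read counts per gene or normalised read counts scaled to library size (CPM). The sources used here give neither the age of the mice nor whether each library came from a separate mouse. The p-values therefore measure spread among libraries, which may be technical.

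Peripheral glia arise from the neural crest, the embryonic tissue that also gives sympathetic neurons. Migrating crest cells and Schwann cell precursors depend on the transcription factor Sox10 and on neuregulin signals received through Erbb3, and later either wrap axons in myelin or remain non-myelinating. After nerve injury, Schwann cells lower their myelin genes and raise genes of the immature state, Ngfr among them. In RNA of whole tumours, a larger share of glial cells cannot be told apart from more glial RNA per cell.

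The libraries held 5576926 to 5696436 counts, and 3 counts, taken as the limit for a gene with none, corresponded to 0.513 to 0.649 CPM. This limit covers counting error alone. Library 1 of the 5-day group stood apart from the other 9: its 12 macrophage markers summed to 13000 CPM and its 14 adrenergic (sympathetic tumour cell) genes to 700 CPM, against 551 to 1530 CPM and 1990 to 3270 CPM elsewhere. Fitted results are therefore given with and without it. The adrenergic gene Th had at least 285 counts in every library, so adrenergic gene expression was detected in all 10.

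After 24 h of treatment, Sox10, Foxd3, Erbb3 and Cdh19 were each higher in all 3 libraries than in any untreated library, while Mbp overlapped with the untreated libraries and S100b was close to undetected. Across the genome, 7.1% of tested genes were higher at 24 h without overlap between the groups, against 4 of the 7 glial genes. None of them passed the test over all genes. After 5 days, 3 of the 4 libraries held Sox10 and Cdh19 above every untreated library, and library 4 held both below them.

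**Figure D1:**
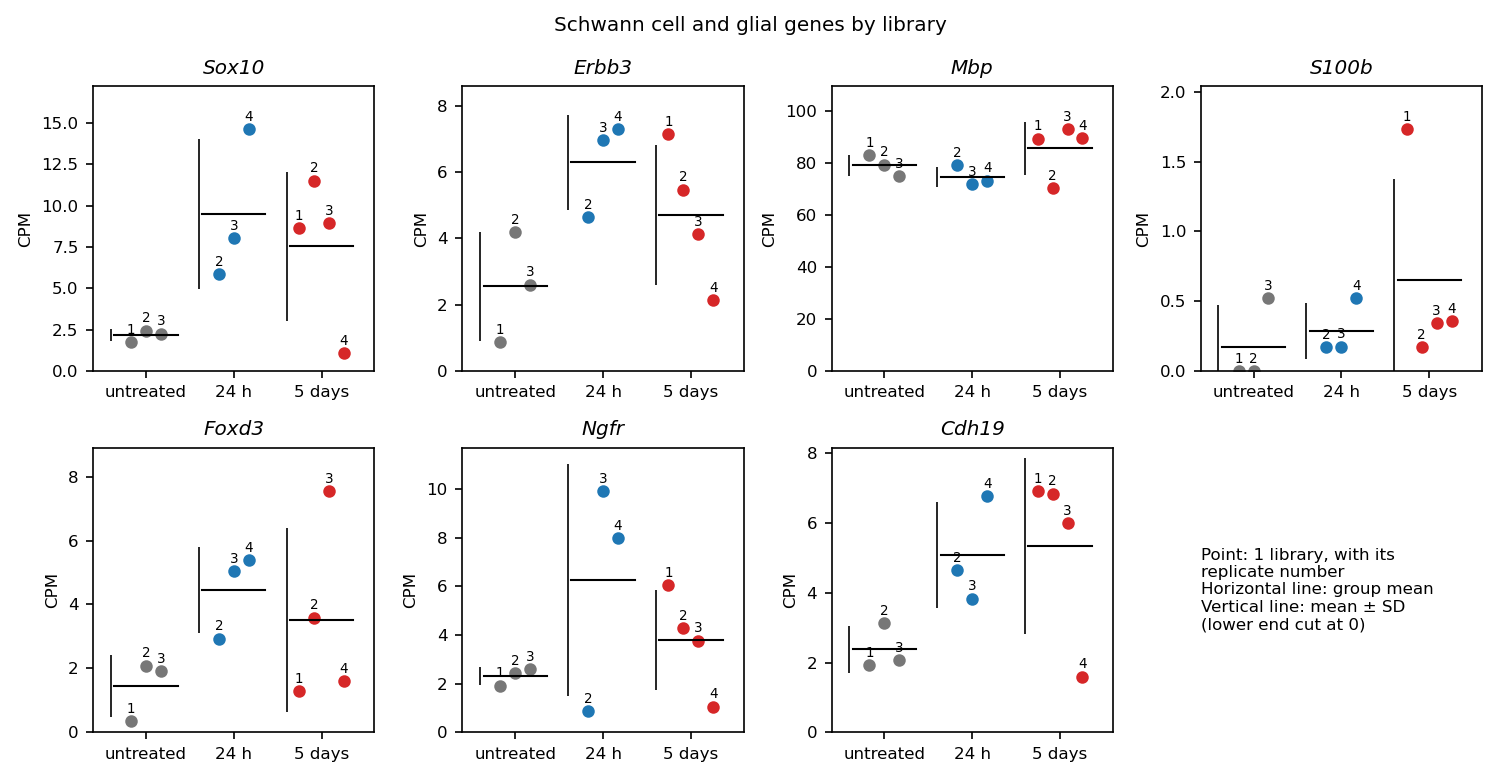
Normalised read count (CPM) of the 7 glial genes in the 10 libraries, by group; each point is 1 library with its number, the horizontal line the group mean and the vertical line the mean ± SD. For Sox10, Foxd3, Erbb3 and Cdh19 all 24 h points lie above all untreated points, 5-day library 4 is low for Sox10, Ngfr and Cdh19, and Mbp is between 70.5 and 93.0 CPM in every library.

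Among the transcription factors, Sox10 is required for all peripheral glia and drives their myelin genes (ENSMUSG00000033006, chromosome 15, 79154908 to 79165240 on the minus strand of mm10). It was at 5.85, 8.01 and 14.6 CPM in 24 h libraries 2, 3 and 4 (34, 46 and 84 counts), against 1.75, 2.44 and 2.26 CPM in untreated libraries 1, 2 and 3 (10, 14 and 13 counts). The lowest 24 h library thus lay above the highest untreated one, with library 4 the highest of all 10. Means were 9.48 ± 4.55 CPM at 24 h and 2.15 ± 0.359 CPM in untreated tumours (SD, n = 3 each), a log2 fold change of 2.13 ± 0.72 (SE). The edgeR quasi-likelihood test gave an unadjusted p = 0.0155 and a Benjamini-Hochberg adjusted p = 1, and without 5-day library 1 these were 0.0141 and 0.486.

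At 5 days Sox10 was at 8.65, 11.5, 8.92 and 1.06 CPM in libraries 1 to 4 (40, 67, 52 and 6 counts). Libraries 1 to 3 were above every untreated library and library 4 was below every one, so the groups overlapped. The log2 fold change over untreated tumours was 1.80 ± 0.69 (SE; edgeR adjusted p = 0.538) and 1.74 ± 0.71 without library 1 (adjusted p = 0.568). Without library 4 it was 2.17 ± 0.39 (adjusted p = 0.293), with an SE of 0.39 in place of 0.69. Library 4 is singled out for its low value, so a higher fold change had to follow. Over all alternatives run, this fold change spanned 1.53 to 2.17. Between 5 days and 24 h the log2 fold change was -0.33 ± 0.63 (adjusted p = 0.84), and its sign turned when either 24 h library 4 (0.11) or 5-day library 4 (0.04) was left out.

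Foxd3, a forkhead factor of neural crest cells and early glial precursors, is a gene of a single exon (ENSMUSG00000067261, chromosome 4, 99656299 to 99658622 on the plus strand). It was at 2.93, 5.05 and 5.38 CPM in 24 h libraries 2, 3 and 4, against 0.349, 2.09 and 1.91 CPM in untreated libraries 1, 2 and 3. The groups did not overlap, but untreated library 1 held 2 counts. The log2 fold change was 1.60 ± 0.76 (SE; edgeR unadjusted p = 0.0649, adjusted p = 1), and 1.61 ± 0.65 without 5-day library 1 (unadjusted p = 0.0304, adjusted p = 0.571). The 5-day libraries 1 to 4 were at 1.3, 3.59, 7.55 and 1.6 CPM. Here libraries 1 and 4 were within the untreated range and library 3 was the highest of all 10, with a log2 fold change over untreated tumours of 1.27 ± 0.73 (adjusted p = 0.543). This fold change was 1.55 ± 0.65 without 5-day library 1 (edgeR adjusted p = 0.568).

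The 250 bases before the Foxd3 start are shown because this was the one promoter read here among the 4 genes without overlap at 24 h. They come from RefSeq's GRCm38.p6 annotation (chr4:99656049-99656298, plus strand), and capitals mark the motifs found.
Foxd3: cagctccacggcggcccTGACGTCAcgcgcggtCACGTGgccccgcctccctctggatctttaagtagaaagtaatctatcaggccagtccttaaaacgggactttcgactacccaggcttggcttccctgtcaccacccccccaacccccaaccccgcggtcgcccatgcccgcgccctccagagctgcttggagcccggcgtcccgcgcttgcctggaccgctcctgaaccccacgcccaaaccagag
Both strands were searched for 4 motifs chosen after this sequence had been read: the SOX-type hexamers ACAAAG and ACAATG, the E-box CACGTG and the CRE-type octamer TGACGTCA. No pair of them overlapped in this window. The E-box, which MYC family proteins can bind, occurred once, as it did at least once in 6.02% of 32851 mouse promoter windows of the same length. The CRE-type octamer also occurred once, against 1.55% of all windows, and neither SOX hexamer was among these letters (16.5% and 10.7% of all windows). The stretch held 21 CpG dinucleotides and was 65.6% G and C, against a median of 52.4% for all windows. Of the 7 genes, 3 (Foxd3, S100b and Ngfr) matched the promoter table, and these motifs did not occur in the windows of S100b and Ngfr, that of Ngfr cut to 213 bases at the annotated start.

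Of the receptors, Erbb3 binds neuregulins but has little kinase activity of its own and signals with a partner such as Erbb2 (ENSMUSG00000018166, chromosome 10, 128567523 to 128589652 on the minus strand). It was at 4.65, 6.96 and 7.29 CPM in 24 h libraries 2, 3 and 4, against 0.873, 4.18 and 2.6 CPM in untreated libraries 1, 2 and 3. The groups were separated narrowly, by 24 h library 2 and untreated library 2. Means were 6.30 ± 1.44 CPM at 24 h and 2.55 ± 1.65 CPM in untreated tumours (SD, n = 3 each), with a log2 fold change of 1.30 ± 0.57 (SE; edgeR unadjusted p = 0.0499, adjusted p = 1). Without 5-day library 1 the log2 fold change was 1.31 ± 0.50 (adjusted p = 0.539). At 5 days the libraries were at 7.14, 5.47, 4.12 and 2.13 CPM, 2 of 4 above the untreated range. The log2 fold change of 0.88 ± 0.55 over untreated tumours (adjusted p = 0.552) was 0.62 ± 0.51 without library 1.

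Ngfr, which encodes the neurotrophin receptor p75, was split within the 24 h group (ENSMUSG00000000120, chromosome 11, 95568818 to 95587735 on the minus strand). The 24 h libraries 2, 3 and 4 were at 0.861, 9.92 and 7.99 CPM (5, 57 and 46 counts), against 1.92, 2.44 and 2.6 CPM in untreated libraries 1, 2 and 3 (11, 14 and 15 counts). Library 2 was thus below every untreated library, and libraries 3 and 4 were the highest of all 10. The log2 fold change was 1.42 ± 0.80 (SE; edgeR unadjusted p = 0.109, adjusted p = 1). In 5-day libraries 1 to 4 Ngfr was at 6.06, 4.28, 3.77 and 1.06 CPM, with library 4 again below the untreated range. That gave a log2 fold change of 0.70 ± 0.76 over untreated tumours (adjusted p = 0.695) and 0.40 ± 0.77 without library 1.

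Cdh19, an adhesion molecule of the cadherin family found on Schwann cell precursors, followed Sox10 most closely (ENSMUSG00000047216, chromosome 1, 110888326 to 110977584 on the minus strand). It was at 4.65, 3.83 and 6.77 CPM in 24 h libraries 2, 3 and 4, against 1.92, 3.14 and 2.08 CPM in untreated libraries 1, 2 and 3. All 24 h values lay above all untreated ones, and the log2 fold change was 1.09 ± 0.52 (SE; edgeR unadjusted p = 0.0661, adjusted p = 1). At 5 days it was at 6.92, 6.84, 6.0 and 1.6 CPM in libraries 1 to 4. Libraries 1 to 3 lay close together above the untreated range and library 4 below it, for a log2 fold change of 1.16 ± 0.50 over untreated tumours (unadjusted p = 0.0437, adjusted p = 0.538). Without library 1 it was 1.02 ± 0.50 (adjusted p = 0.613), and without library 4, singled out as the lowest, it was 1.47 ± 0.33 (adjusted p = 0.293).

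The calcium-binding protein gene S100b, a common marker of mature Schwann cells and astrocytes, held 21 counts over the 10 libraries (ENSMUSG00000033208, chromosome 10, 76253853 to 76261159 on the plus strand). It had 1, 1 and 3 counts in the 24 h libraries and 8, 1, 2 and 2 counts in the 5-day libraries, against 0, 0 and 3 counts in untreated ones. In 9 of the 10 libraries it was at or below 3 counts, the exception being 5-day library 1, and a difference between groups was not detectable at this depth. It failed the filter on low counts and was the 1 gene of the 7 that was not tested. The other 6 passed, each with at least 2 untreated libraries above the filter's 1.78 CPM. The filter asked for at least 3 libraries above it. Sox10, Erbb3 and Foxd3 had 2 untreated libraries above it and so needed treated libraries to pass. Their place in the medians of tested genes below thus rests partly on the treated groups.

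Mbp, which encodes a protein that compacts the myelin sheath, was the most abundant of the 7 and did not follow the others (ENSMUSG00000041607, chromosome 18, 82475146 to 82585637 on the plus strand). It was at 79.2, 71.9 and 73.3 CPM in 24 h libraries 2, 3 and 4, against 83.1, 79.4 and 75.0 CPM in untreated libraries 1, 2 and 3. The log2 fold change was -0.08 ± 0.13 (SE; edgeR adjusted p = 1), and the groups overlapped. At 5 days the libraries were at 89.5, 70.5, 93.0 and 89.7 CPM, a log2 fold change of 0.12 ± 0.12 over untreated tumours (adjusted p = 0.678). The same gene also makes golli transcripts, which occur in neurons and immune cells, and counts per gene do not separate them from myelin transcripts.

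**Figure D2:**
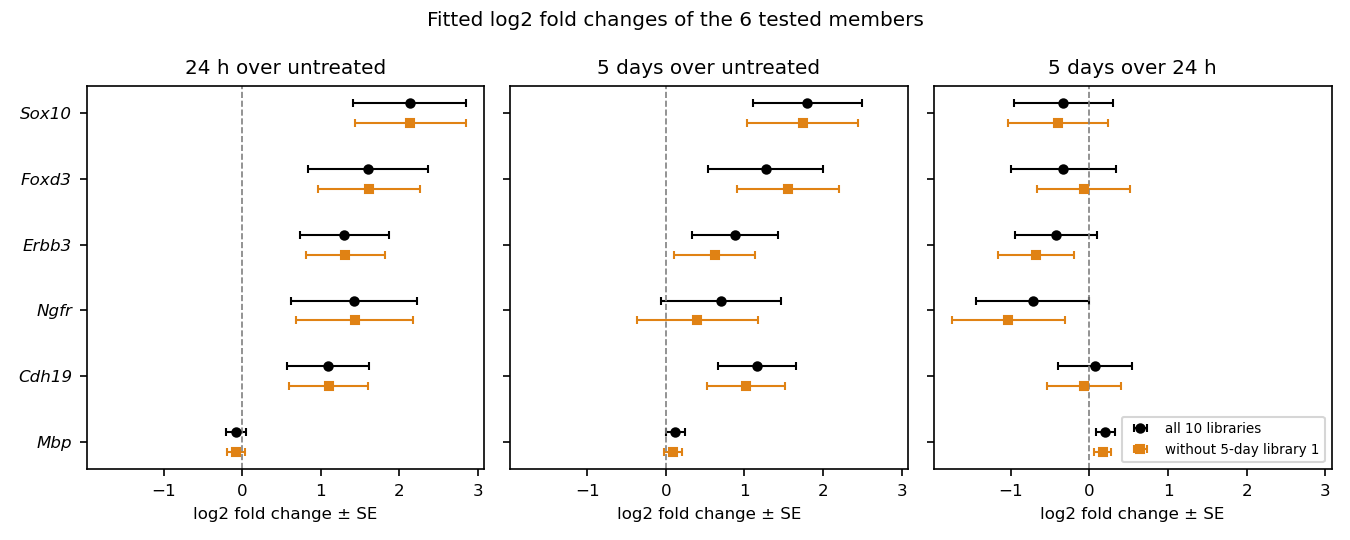
Fitted log2 fold changes (edgeR, ± SE) of the 6 tested glial genes in the 3 comparisons, with all 10 libraries (circles) and without 5-day library 1 (squares). At 24 h over untreated tumours the values of 5 genes lie between 1.09 and 2.13 and that of Mbp is -0.08; at 5 days over 24 h the values with all libraries lie between -0.72 and 0.2.

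Taking the 6 tested genes as a list, 5 were higher and 1 lower at 24 h than in untreated tumours, with a median log2 fold change of 1.36 where the median of all genes was -0.01. At 5 days 6 were higher than in untreated tumours, with a median of 1.02 (all genes 0.01). Both comparisons share the untreated libraries. Between 5 days and 24 h 2 were higher and 4 lower, with a median of -0.33 (all genes 0.03). In the last 2 comparisons all 7 genes overlapped between the groups, with or without 5-day library 1. Of all tested genes, 3.91% and 3.27% were higher without overlap in these comparisons, and 6.48% and 5.18% without that library. Lower without overlap were 4.99% and 4.4%, and 7.65% and 6.67% without that library. With edgeR's quasi-likelihood test, 0% of all 14956 tested genes, and 0 of the 6 glial genes, passed an adjusted p of 0.05 in any of the 3 comparisons. Without 5-day library 1, 2 genes (0.0136%) passed at 24 h over untreated tumours and 0 in the other comparisons, again with no glial gene. DESeq2 called 0 genes at 24 h over untreated, 21 (0.14%) at 5 days over untreated and 3 (0.0201%) at 5 days over 24 h, with no glial gene among them. With edgeR, an unadjusted p under 0.05 was reached by 263 genes (1.76% of those tested) at 24 h over untreated, 1257 (8.4%) at 5 days over untreated and 942 (6.3%) at 5 days over 24 h. Of the glial genes, Sox10 and Erbb3 reached it at 24 h, where 1.14% of genes were higher at this level, and Sox10 and Cdh19 at 5 days over untreated tumours, where 6.38% were. Without 5-day library 1, Sox10, Erbb3, Foxd3 and Cdh19 reached it at 24 h, against 4.56% of genes. At 5 days over untreated tumours Sox10 and Foxd3 reached it without that library, and Cdh19 did not, where 4.65% of genes were higher at this level.

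The library totals of the glial genes depended on whether Mbp was included. Without it, the other 6 summed to 19.1, 33.9 and 42.5 CPM in 24 h libraries 2, 3 and 4 and to 31.8, 31.8, 30.7 and 7.8 CPM in 5-day libraries 1 to 4, against 6.81, 14.3 and 12 CPM in untreated libraries 1, 2 and 3. The 24 h libraries were all above the untreated ones, and 5-day library 4 was among them. Mbp alone made up 63.3% to 92.4% of the sum of all 7. Per kilobase of exon, averaged over the 10 libraries, Mbp was at 9.50 ± 0.955 CPM (SD), Sox10 at 2.13 ± 1.51, Foxd3 at 1.37 ± 0.957, Ngfr at 1.19 ± 0.878, Cdh19 at 1.02 ± 0.504, Erbb3 at 0.755 ± 0.369 and S100b at 0.269 ± 0.339 CPM. Mbp stood clear of the rest. From Sox10 down to Erbb3, neighbours in this order differed by less than their SD over libraries, while Erbb3 and S100b differed by more.

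**Figure D3:**
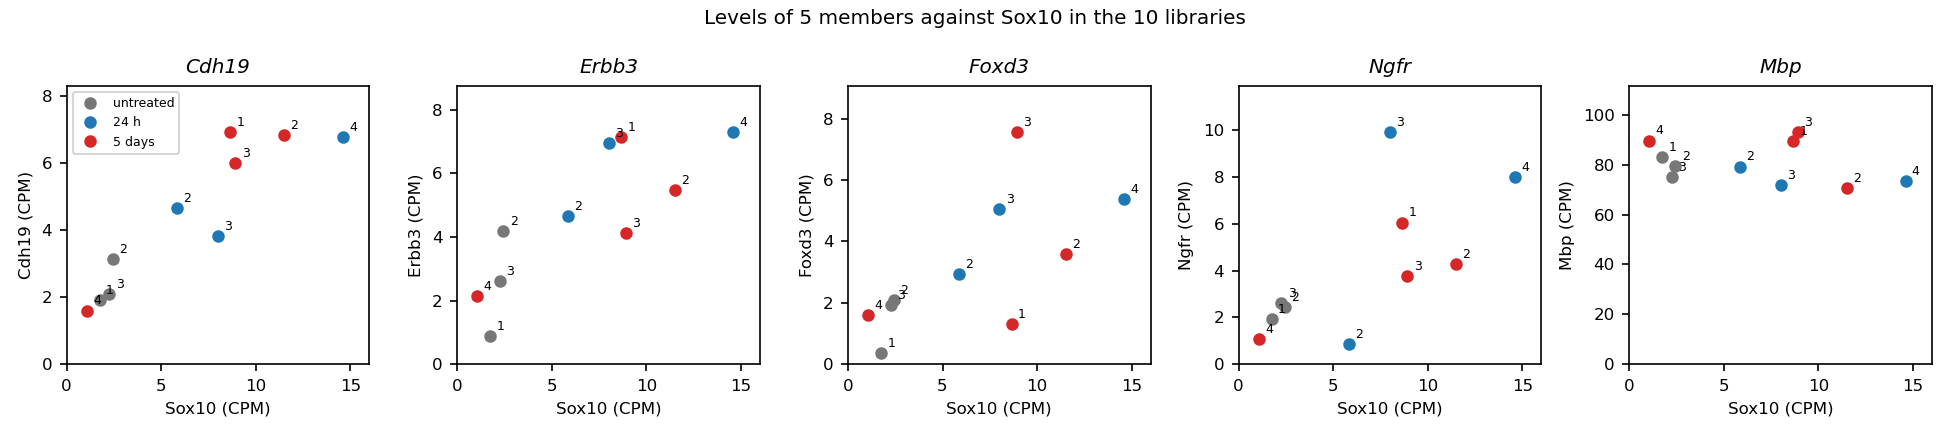
CPM of Cdh19, Erbb3, Foxd3, Ngfr and Mbp (y axes) against CPM of Sox10 (x axes), 1 point per library with its number, coloured by group. Cdh19 and Erbb3 are high where Sox10 is high, and Mbp shows no such order. The 5-day library 4 lies below every untreated library for Sox10, Cdh19 and Ngfr and within their range for Erbb3 and Foxd3.

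Across the 10 libraries, Cdh19, Erbb3, Ngfr and Foxd3 varied with Sox10 to differing degrees. On the log2(CPM + 0.5) scale, Sox10 had a Pearson correlation of 0.95 with Cdh19, 0.83 with Erbb3, 0.71 with Ngfr and 0.70 with Foxd3, and of -0.32 with Mbp. Without 5-day library 1 these were 0.96, 0.82, 0.69, 0.82 and -0.46. Pairs among Cdh19, Erbb3, Ngfr and Foxd3 ran from 0.47 (Foxd3 with Ngfr) to 0.82 (Erbb3 with Cdh19) over all 10 libraries. The points include the differences between groups, and the values of a library share its depth and tissue, so these correlations describe the libraries and carry no test. The weak value of S100b with Sox10 (0.33) rests on too few counts to read. Of 14952 genes ranked, those most like Sox10 over all 10 libraries included Cdh19 (0.954), the collagen gene Col28a1 (0.937), Paxbp1 (0.932) and 9530062K07Rik (0.931). Over the 9 libraries without 5-day library 1 they were the adenylate cyclase gene Adcy7 (0.962), Cdh19 (0.961), Ermard (0.939), Col28a1 (0.939) and Col16a1 (0.939). By likeness to Sox10, Erbb3 ranked 36, Ngfr 175 and Foxd3 194 over all 10 libraries. Over the 9 libraries they ranked 188, 800 and 190, so many genes outside the 7 followed Sox10 as closely or more closely. Some of these may be glial genes too. Of the Schwann cell precursor list below, Ttyh1 ranked 8 over 10 libraries and 28 over 9, and Fabp7 ranked 467 and 1557. The genes most like the mean of the 7 included Col28a1 (0.965), Agrp (0.943), 9530062K07Rik (0.928) and Plekhb1 (0.918) over 10 libraries, and Col28a1 (0.961), Ldlrad4 (0.947) and Ermard (0.943) over 9.

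Other genes of the glial lineage gave a mixed picture beside the 7, and none of those described below passed the test over all genes in any of the 3 comparisons, with or without 5-day library 1. Of 12 Schwann cell precursor genes, 10 were tested, and 7 were higher and 3 lower at 24 h (median log2 fold change 0.59). Fabp7, a fatty acid binding protein of glial precursors, was at 4.92 ± 2.83 CPM at 24 h and 1.92 ± 1.52 CPM in untreated tumours (SD, n = 3 each). Serpine2, a secreted protease inhibitor, was at 54.6 ± 23.2 CPM at 24 h and 23.5 ± 4.21 CPM in untreated tumours (SD, n = 3 each). Gfra3, the artemin co-receptor, which sympathetic neurons also carry, had a lower mean, at 14.6 ± 2.45 CPM at 24 h and 33.6 ± 10.9 CPM in untreated tumours (SD, n = 3 each; log2 fold change -1.20 ± 0.42 (SE), edgeR adjusted p = 1). Gap43, shared with growing axons, was at 228 ± 58.1 CPM at 24 h and 202 ± 6.31 CPM in untreated tumours (SD, n = 3 each).

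Genes of peripheral myelin had a median near that of all genes at 24 h. Of these 16 genes 8 were tested, of which 5 were higher and 3 lower (median 0.09). The most abundant, Pmp22, was at 86.1 ± 24.5 CPM at 24 h and 83.8 ± 5.53 CPM in untreated tumours (SD, n = 3 each). The 5-day library 1 held 26.0 CPM of Egr2, the factor that starts myelination, which had 1 to 20 counts elsewhere, while its Sox10 was close to that of 5-day libraries 2 and 3. Egr2 also occurs in macrophages, whose markers were highest in the same library, and their part in its level was not tested.

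Of 12 Schwann cell transcription factors 6 were tested, 2 higher and 4 lower at 24 h (median -0.02). Zeb2, which permits myelination, was at 138 ± 9.53 CPM at 24 h and 142 ± 13.9 CPM in untreated tumours, and the factor Yy1 at 165 ± 15 CPM at 24 h and 166 ± 7.86 CPM in untreated tumours (SD, n = 3 each). Sox2, a factor of immature Schwann cells, had 0 counts in all 10 libraries. Such a 0 does not show absence in this table, since 1 of 8 skeletal muscle markers was also at 0 in every library, 5-day library 2 included, where the muscle genes Ckm and Myh4 had 533 and 628 counts. Pou3f1, the factor of promyelinating cells, had 1 to 10 counts. Of 10 genes of non-myelinating and satellite glia 9 were tested, 8 higher and 1 lower (median 0.35), and of 10 genes of repair Schwann cells 4 were tested, 3 higher and 1 lower (median 0.15). Gfap, a filament of non-myelinating Schwann cells and astrocytes, was likewise at 0 in all 10 libraries.

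**Figure D4:**
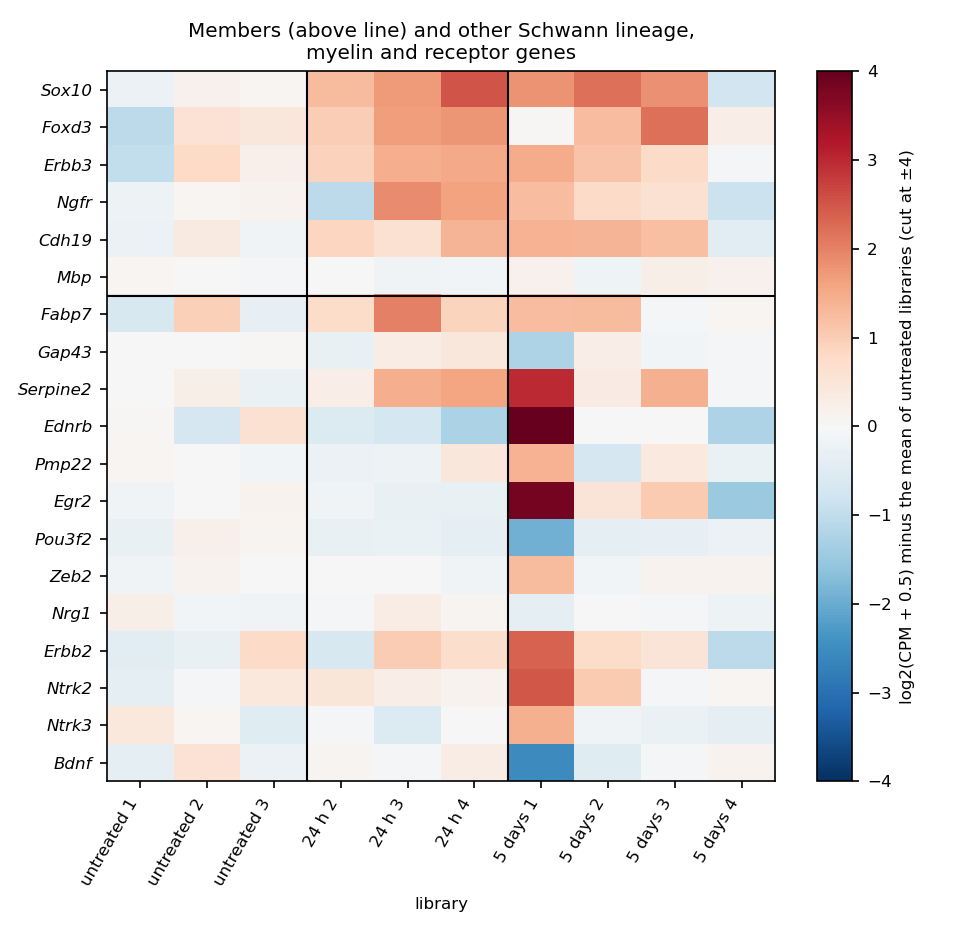
Level of the 6 tested glial genes (above the line) and of other lineage, myelin and receptor genes in each library, as log2(CPM + 0.5) minus the mean of the untreated libraries, with colours cut at ±4. Sox10, Erbb3 and Cdh19 are above 0 in all 24 h libraries and in 5-day libraries 1 to 3, while Egr2 and Ednrb stand out in 5-day library 1.

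The ligands and partners of the 2 receptors were measured as well. Of 7 neuregulin pathway genes 6 were tested, 4 higher and 2 lower at 24 h (median 0.15). Nrg1, the neuregulin that Schwann cells need for survival, was at 42.3 ± 5.09 CPM at 24 h and 39.2 ± 6.18 CPM in untreated tumours (SD, n = 3 each), a log2 fold change of 0.11 ± 0.17 (SE). Erbb2, the kinase partner of Erbb3, was at 2.55 ± 1.53 CPM at 24 h and 1.80 ± 1.15 CPM in untreated tumours (SD, n = 3 each). Of 10 neurotrophin pathway genes 6 were tested, 3 higher and 3 lower (median -0.05). Bdnf, a ligand of Ngfr, was at 31.3 ± 4.24 CPM at 24 h and 30.1 ± 11.6 CPM in untreated tumours (SD, n = 3 each). Of the Trk receptors that pair with Ngfr, Ntrk2 was at 15.1 ± 1.79 CPM at 24 h and 12.5 ± 3.58 CPM in untreated tumours, and Ntrk3 at 16.1 ± 3.14 CPM at 24 h and 19.1 ± 6.15 CPM in untreated tumours (SD, n = 3 each).

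At 5 days over untreated tumours the same lists had medians of 0.81 for precursor genes, 0.47 for myelin genes, 0.84 for transcription factors, 0.52 for non-myelinating and satellite glia, 1.27 for repair Schwann cells, -0.04 for the neuregulin pathway and 0.46 for the neurotrophin pathway. Without 5-day library 1 they were 0.30, 0.09, 0.06, 0.20, -0.11, 0.02 and -0.03, with 1 gene fewer tested among the transcription factors, the satellite glia and the repair Schwann cells. That of the 6 glial genes was 0.82 without this library and 1.02 with it.

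Other cells that express some of these genes were looked for by their own markers. Of the genes of oligodendrocytes, which also use Sox10 and Mbp, Mog had 1 to 11 counts in every library, and Mobp, Opalin and Olig2 were at 0 in all 10, which does not show their absence. The 8 markers of central glia summed to 10.8 to 12.3 CPM at 24 h and 9.93 to 163 CPM at 5 days, against 8.38 to 32.0 CPM in untreated tumours. The 163 CPM was in 5-day library 1, where Aldh1l1 was at 93.7 CPM, Slc1a3 at 66.2 CPM and Mog at 0.216 CPM. Markers of adipocytes and macrophages were also highest in that library, and the part of other cells in this sum was not tested. Melanocytes also use Sox10, and their pigment genes Dct and Tyr had 0 to 3 counts in every library. The melanocyte list summed to 58.5 to 77.3 CPM at 24 h and 74.1 to 107 CPM at 5 days, against 59.4 to 92.7 CPM in untreated tumours. Most of this was Kit, a receptor of several cell types, except in 5-day library 1, where the melanocyte factor Mitf, which other cells also use, was at 78.1 CPM and Kit at 23.8 CPM. Perineurial markers, of the sheath around nerves, summed to 24.5 to 34.6 CPM at 24 h and 26.9 to 121 CPM at 5 days, against 34.1 to 35.3 CPM in untreated tumours. Without 5-day library 1 the 5-day sums were 26.9 to 34.2 CPM. In that library Cldn5 was at 71.8 CPM and Slc2a1 at 30.3 CPM. Its endothelial markers summed to 554 CPM, and the part of other cells in the perineurial sum was not tested.

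**Figure D5:**
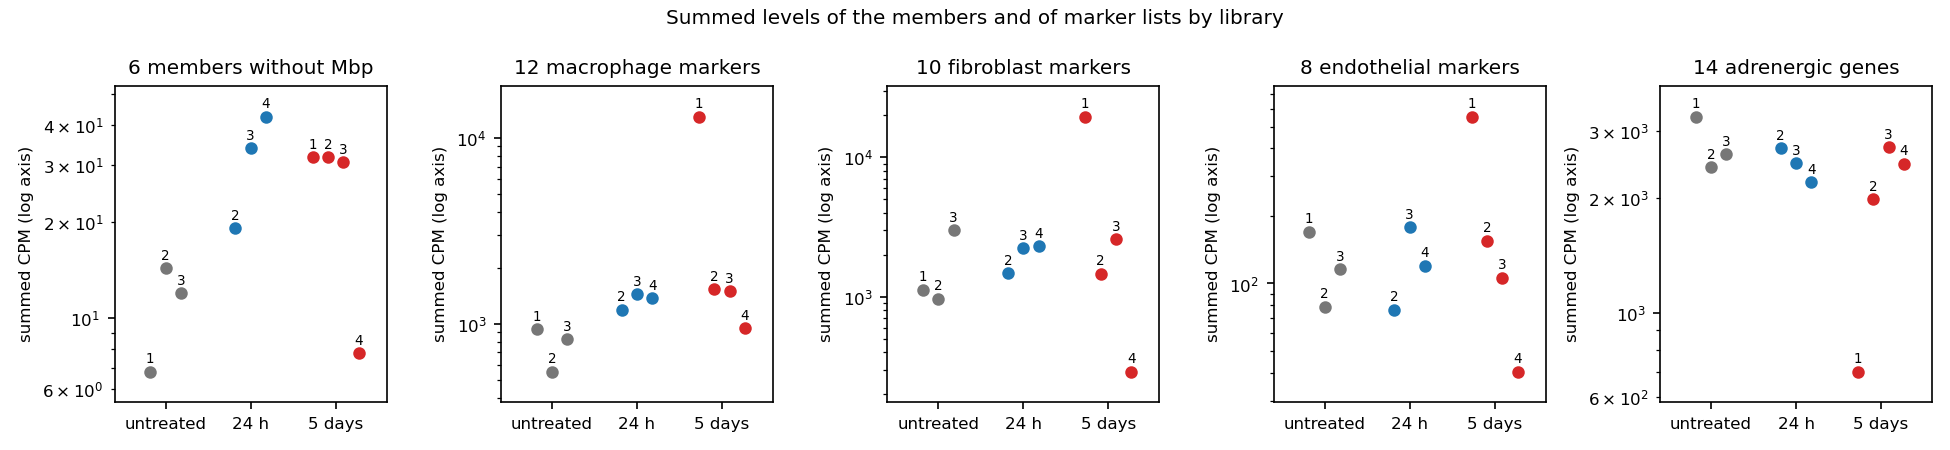
Summed CPM (log axes) of the 6 glial genes other than Mbp and of markers of macrophages, fibroblasts, endothelium and adrenergic tumour cells, 1 point per library with its number. Macrophage markers are, like the glial genes, above every untreated library at 24 h, and 5-day library 4 is the lowest library for fibroblast and endothelial markers.

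Markers of 1 other cell type were separated between 24 h and untreated tumours as the glial genes were. The 12 macrophage markers summed to 1190, 1440 and 1370 CPM in 24 h libraries 2, 3 and 4, against 935, 551 and 826 CPM in untreated libraries 1, 2 and 3. Of these 12, 10 were higher and 2 lower (median log2 fold change 0.76), and their part in the glial values was not tested. The 10 fibroblast markers summed to 1470 to 2300 CPM at 24 h, against 970 to 3000 CPM in untreated tumours, and the 8 endothelial markers to 76.3 to 178 CPM, against 78.7 to 170 CPM. The adrenergic genes summed to 2200 to 2700 CPM at 24 h, against 2410 to 3270 CPM in untreated tumours. Of these 14 genes, 5 were higher and 9 lower at 24 h (median log2 fold change -0.11). The part of the tumour cell share in the glial values was not tested.

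In 5-day library 4, where Sox10, Erbb3, Ngfr and Cdh19 were lowest among the 5-day libraries, the fibroblast sum was 289 CPM and the endothelial sum 40.4 CPM, the lowest of all 10 libraries, and the macrophage sum was 944 CPM. Its adrenergic sum of 2460 CPM was within the untreated range, and its 8 skeletal muscle markers summed to 179 CPM, against 2.97 to 4.86 CPM in untreated tumours. In 5-day library 2 muscle markers reached 496 CPM and the 8 adrenal cortex markers 1610 CPM, against 11.9 to 14.8 CPM in untreated tumours. Adipocyte markers reached 8140 CPM in 5-day library 1, against 48.2 to 772 CPM in untreated tumours. The part of this other tissue in the glial values at 5 days was not tested, while at 24 h muscle markers summed to 3.96 to 6.62 CPM and adrenal cortex markers to 10.6 to 12.4 CPM.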

How the data were processed

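The deposited files hold whole-number read counts per Ensembl gene, 1 file per library. Per the labels, Trizol was used on flash-frozen tumours and NEB protocols for the libraries. The submitters' processing notes name mm10, edgeR, HISAT2 and TopHat2 2.1.1. What each tool did, the counting annotation, the strand setting and the handling of multiply aligned reads were not given in the sources used here. Of 54446 identifiers, 54409 had a symbol in GENCODE release M21. None of the 7 genes shares exonic bases with another gene except Foxd3 (89 bases, with a miRNA gene).

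From these counts, edgeR 4.0.16 (R 4.3.3) was run on all 10 libraries: filterByExpr with a minimum count of 10 and total of 15 (14956 genes), TMM scaling, 1 mean per group, robust quasi-likelihood F tests, and Benjamini-Hochberg adjustment over all tested genes at 0.05. Standard errors were derived from the F statistic. CPM used scaled totals. The fit was also run on simulated counts with 200 changed genes, and the outcome is not reported here. Alternatives were DESeq2 1.42.0 and its size factors, limma 3.58.1 voom with quality weights, other filters, a fit of the compared groups alone, a block for the replicate number, and each library left out.

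The 7 genes, the other lists and the alternatives were chosen with earlier results of these data known. Genes open to naming were the 7, the 4 most abundant of each list, any that passed the test and a fixed set. Also open were the 5 genes most correlated with Sox10 or with the mean of the 7 (mean of at least 1 CPM). Chosen after their values were seen were Gfra3, Ttyh1, Ckm, Myh4, Mobp, Opalin and Olig2. Some genes that this rule names are not reported here. Samples were grouped by title, and no sample was left out of the main fit. Plots were drawn with matplotlib 3.10.9.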

Additional observations from a re-analysis of the deposited data

Results flagged for a closer look

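In the 5-day group of 4 libraries, 1 library lay far from the other 3 for 8 of the genes examined. Those examined were the 7 glial genes and a chosen part of the other lists. Chance gives such a gap in about 1 of 20 groups, but the share of all tested genes with such a gap was not computed. Library 1 also stood apart for markers of other cells, so these 8 are not shown to be unusual among all genes. For Mbp it was library 2, the lowest at 70.5 CPM, with the others at 89.5 to 93.0 CPM. For the other 7 genes it was library 1. S100b was highest there at 1.73 CPM, which is 8 counts. Egr2 at 26.0 CPM, Zeb2 at 339 CPM, the endothelin receptor gene Ednrb at 231 CPM and Ntrk3 at 49.7 CPM were also highest in library 1. The neural factor Pou3f2 at 21.2 CPM and the adhesion gene Ncam1 at 55.6 CPM were lowest there. Sox10, Foxd3, Erbb3 and Ngfr did not meet this criterion. Cdh19 just missed it, since the gap of library 4 to the others was 0.828 of the group's range, just under the limit for 4 libraries. Library 4 was the lowest of the 4 for Sox10, Erbb3, Ngfr and Cdh19.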

How the results depend on the processing

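No glial gene was called in any comparison under any alternative run. Of 336 recomputed log2 fold changes, 327 kept their direction and their side of the threshold, and 9 changed sign, all between 5 days and 24 h. Cdh19 was at -0.11 with voom quality weights, -0.11 with the replicate block, -0.10 without 24 h library 3, -0.07 without 5-day library 1, also with only the compared groups, -0.07 without 5-day library 2, and -0.19 without 5-day library 1 with the replicate block, against 0.07 with all libraries. Sox10 was at 0.11 without 24 h library 4 and 0.04 without 5-day library 4, against -0.33. With single libraries left out, Cdh19 spanned -0.10 to 0.38 and Sox10 -0.60 to 0.11. Over the alternatives, the log2 fold change of Sox10 at 24 h over untreated tumours ran over 1.68 to 2.38 (adjusted p 0.151 to 1), that of Erbb3 over 0.89 to 1.85, of Foxd3 over 1.14 to 1.97, of Ngfr over 0.93 to 1.94, of Cdh19 over 0.83 to 1.34 and of Mbp over -0.13 to -0.05. At 5 days Sox10 ran over 1.53 to 2.17 (adjusted p 0.266 to 0.852) and Cdh19 over 0.98 to 1.47.

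Counts of genes called over the whole table depended more on the settings. At 24 h over untreated tumours the 0 calls became 7 with only the compared groups, 3 with voom quality weights and 0 to 2 with single libraries left out, the 2 without 5-day library 1. DESeq2 called 21 genes at 5 days over untreated tumours and 3 at 5 days over 24 h. Leaving out 5-day library 1 brought the biological coefficient of variation to 18.9%, against 40.8%. Whether replicate numbers pair the libraries was not settled. Same-numbered libraries had correlations of deviations of -0.39 to 0.25, and differently numbered ones of -0.55 to 0.49. With the replicate block 0 genes were called in each comparison, as in the main fit, so these calls cannot decide on a pairing. Fewer than 100 counts per library for every glial gene but Mbp limit the precision of their fold changes.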
